A study of Mus musculus with 6 samples.

Results

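CUT&RUN of H3K4me3, histone H3 trimethylated at lysine 4, was done in the mouse embryonic stem (ES) cell line E14, and 58571 peaks of the mark on the 19 autosomes are described here. They were all autosomal entries of the H3K4me3 peak list, which held 59927 peaks in all, and the 2 peak lists of the study together held 62391. No measured value was used to choose them. The cells carried a doxycycline-inducible transgene for HA-tagged ASH2L, a subunit of the MLL/SET1 methyltransferase complexes, which the labels also call a knock-in. The methods state that colonies were picked and screened for expression of the transgene, and do not say whether the line profiled was 1 clone. The cells were kept in medium with serum and LIF and were given doxycycline for 48 h before the experiment. H3K4me3 was profiled in biological duplicate and parental E14 cells were profiled with the HA antibody only, so H3K4me3 was not measured without the transgene. The other groups were HA in HA-ASH2L E14 cells and HA in parental E14 cells, with 2 samples each and 6 samples in all, also with 48 h of doxycycline. The labels give 100000 cells for each H3K4me3 sample, whereas the methods give 1000000. In CUT&RUN, an antibody in permeabilized cells recruits protein A-MNase, which releases the DNA next to the bound nucleosome for sequencing. The authors merged both duplicates before calling peaks, so the list has 1 value per peak and no spread between replicates. No difference was therefore tested, and the 95% intervals given with shares cover counting error only.

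H3K4me3 is written by the MLL/SET1 (COMPASS) family of enzymes and is known as the mark of transcription start sites. It forms on the nucleosomes that flank a start site, most regularly where the promoter lies in a CpG island, a stretch of DNA in which the CpG dinucleotide has not been depleted. CpG islands attract these enzymes through CXXC-domain proteins that bind unmethylated CpG. In ES cells the mark is also known from promoters of silent developmental regulators, where it occurs together with H3K27me3 (bivalent promoters), and from a part of the enhancers.

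The contrast between CpG-rich and CpG-poor promoters runs through the data, so the 150 bases before the start site of a few genes are shown first, on the strand of the gene and from 5′ to 3′, with each CpG in capitals. The sequences are from the RefSeq promoter table of GRCm38.p6, end before the more upstream of the RefSeq and GENCODE starts, and overlap no GENCODE exon. Klf4 (chr4:55532476-55532625, minus strand) and B2m (chr2:122147536-122147685, plus strand) had a peak at the promoter, with 20 and 6 CpGs in these bases. Cd3e (chr9:45009628-45009777, minus strand), a T-cell gene, also had a peak, with 6 CpGs. Eef2 (chr10:81176481-81176630, plus strand) and Sox2 (chr3:34649845-34649994, plus strand) had 17 and 15 CpGs but no peak in the list, and Umod (chr7:119479283-119479432, minus strand), a kidney gene, had 0 CpGs and no peak.
Klf4: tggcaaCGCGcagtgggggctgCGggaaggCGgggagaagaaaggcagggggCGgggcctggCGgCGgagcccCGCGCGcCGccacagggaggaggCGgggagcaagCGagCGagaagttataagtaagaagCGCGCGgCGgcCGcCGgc
B2m: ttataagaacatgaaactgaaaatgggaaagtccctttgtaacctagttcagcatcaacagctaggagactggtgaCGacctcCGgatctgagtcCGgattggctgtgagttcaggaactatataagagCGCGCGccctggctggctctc
Cd3e: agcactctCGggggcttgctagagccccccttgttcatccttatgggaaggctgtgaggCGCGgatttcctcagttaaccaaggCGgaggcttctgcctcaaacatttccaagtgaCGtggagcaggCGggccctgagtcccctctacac
Eef2: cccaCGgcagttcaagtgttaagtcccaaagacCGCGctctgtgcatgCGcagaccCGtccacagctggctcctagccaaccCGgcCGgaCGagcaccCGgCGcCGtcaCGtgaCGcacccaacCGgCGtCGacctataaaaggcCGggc
Sox2: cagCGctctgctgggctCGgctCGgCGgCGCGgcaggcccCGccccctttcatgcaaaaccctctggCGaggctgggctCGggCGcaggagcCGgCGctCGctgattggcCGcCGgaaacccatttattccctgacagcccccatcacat
Umod: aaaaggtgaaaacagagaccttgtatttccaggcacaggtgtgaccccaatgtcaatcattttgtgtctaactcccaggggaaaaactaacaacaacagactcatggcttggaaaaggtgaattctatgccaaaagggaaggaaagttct

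Most H3K4me3 peaks did not have their midpoint in a promoter, although promoters held many more midpoints than their share of the genome. Promoters began 1000 bp before and ended 100 bp after the start of any GENCODE vM21 transcript on mm10. Of the 58571 peaks, 10197 had their midpoint there, or 17.4% (17.1% to 17.7%). These windows made up 3.73% of the autosomal bases, so that the share of peaks was 4.67 times the share of bases. The ratio was 2.70 with promoters of 2500 bp to both sides, 5.94 with transcripts of protein-coding genes and 5.90 with RefSeq transcripts. Exons held 11.7% of midpoints (11.5% to 12.0%) on 4.30% of bases. Introns held 40.3% (39.9% to 40.7%) on 41.7% of bases, close to their share of the genome. Intergenic DNA held 30.6% (30.2% to 31.0%) on 50.3% of bases.

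The midpoint understated the contact of the mark with promoters. A promoter window was overlapped by 19088 peaks, or 32.6% (32.21% to 32.97%), and 8891 of them had their midpoint elsewhere. Of these 8891, 57.3% had the midpoint in an intron, 37.5% in an exon and 5.19% in intergenic DNA. Among peaks with an exonic midpoint 48.6% overlapped a promoter, as against 21.6% of those with an intronic and 2.57% of those with an intergenic midpoint. Peaks at promoters carried more of the signal than their number shows. The 19088 peaks that overlapped a promoter held 61.95% of all tags in autosomal peaks, and the 39483 that did not held 38.05%.

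**Figure D1:**
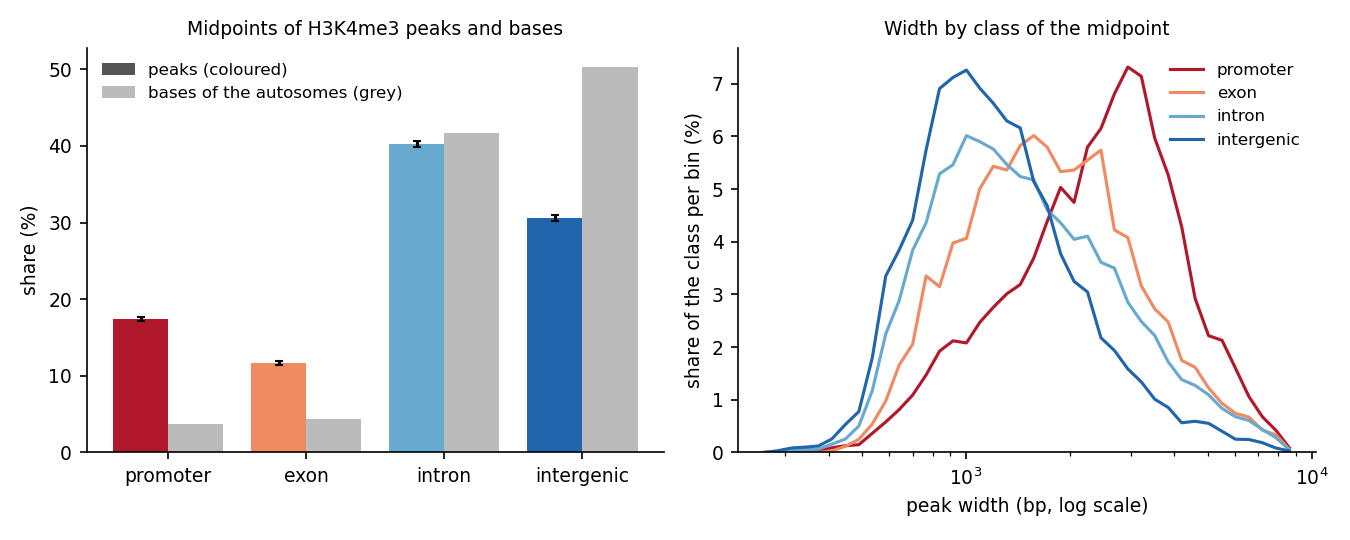
Left, share of the 58571 peaks with their midpoint in each class (coloured bars, 95% Wilson intervals) beside the share of autosomal bases in that class (grey bars). Right, distribution of peak width (bp, log scale) for each class as a percentage of its peaks per bin; the promoter peaks, with a median of 2493 bp, lie to the right of the intergenic peaks, with a median of 1159 bp.

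The peaks covered 4.58% of the autosomal bases and contained 44.9% of the 27328071 tags that the peak caller kept. Their median width was 1456 bp, with the middle 90% of peaks between 625 and 4523 bp and extremes of 273 and 8609 bp. The median number of tags was 113, with a lowest value of 19 and a highest of 3666. The fold enrichment is the tag pile-up at the summit divided by the background that the caller estimated for the region, and its median was 6.46, from 2.18 to 30.2. Tags rose almost in step with width (Spearman correlation 0.967 across 58571 peaks), whereas fold enrichment fell slightly with width (−0.246). These values come from the same tags and share their counting. Neighbouring peaks were separated by a median of 12129 bp.

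Width and tag number followed the place of the peak. Promoter peaks had a median width of 2493 bp and 357 tags, exonic peaks 1695 bp and 164 tags, intronic peaks 1384 bp and 99 tags, and intergenic peaks 1159 bp and 76 tags. The tag density was 137 tags per kb in promoter peaks and 64.9 in intergenic peaks. The fold enrichment did not follow this order, with medians of 6.46, 6.46, 6.23 and 6.65. Peaks with a midpoint within 100 bp of a start site were 2370 bp wide at the median, and peaks more than 100000 bp from any start site were 916 bp wide. Their tags were 354 and 52, but the fold enrichment was 6.88 and 7.60. These 1160 distant peaks were thus narrow and had few tags, without a lower fold enrichment. Of their midpoints 68.2% were intergenic and the others lay within genes.

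Peaks reached farther into the gene than away from it, as measured from the start of the gene model. This was examined for 8656 protein-coding genes whose start lay in a peak that held start sites of no other gene. The start of a gene model is the most upstream of its annotated starts, so the gene's other starts can only lie downstream. Peaks with starts of neighbouring genes, also upstream ones, were left out by this choice. The part of these rules in the asymmetry was not tested. The peak extended a median of 928 bp upstream (quartiles 637 and 1335 bp) and 1663 bp downstream (quartiles 1233 and 2250 bp), and in 84.4% of genes the downstream arm was the longer one. The summit lay a median of 50 bp downstream of the start, with quartiles at −51 and 308 bp. It was within 100 bp of the start in 42.7% of genes, more than 250 bp downstream in 28.95% and more than 250 bp upstream in 6.49%.

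**Figure D2:**
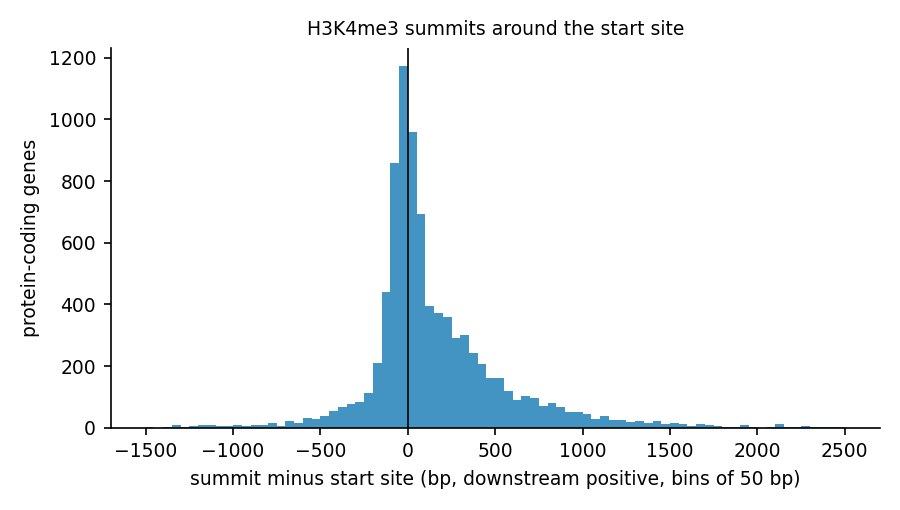
Number of protein-coding genes by the distance of the peak summit from the gene's start site (bins of 50 bp, positive values downstream), for the 8656 genes alone in their peak. The summits cluster at the start site and have a long arm on the downstream side, with the upper quartile at 308 bp.

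CpG content separated marked from unmarked genes over most of its range. Of 20807 autosomal protein-coding genes, 14520 had a peak overlapping a promoter of any of their transcripts, or 69.8% (69.2% to 70.4%), and 13515, or 65%, had one at the start of the gene model itself. The genes were ordered by the ratio of observed to expected CpG in the promoter window of the gene model and divided into 10 deciles. In the lowest decile, with a median ratio of 0.0735, 4.47% of genes had a peak at that start (3.66% to 5.44%). The share was 29.5% in the third decile, 53.3% in the fourth, 78.6% in the fifth and 91.0% in the sixth. From the seventh to the last decile it stayed between 94.2% and 95.8% and did not come closer to 100%.

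**Figure D3:**
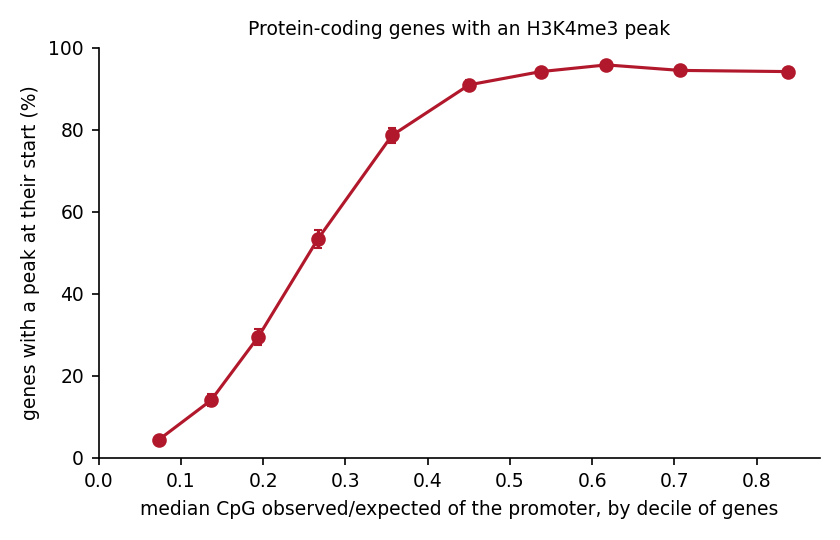
Share of protein-coding genes with a peak at the start of the gene model (%, 95% Wilson intervals) against the median ratio of observed to expected CpG in each decile of genes. The share climbs from 4.47% to 91.0% over the first 6 deciles and then stays between 94.2% and 95.8%.

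The same was seen with 3 promoter classes. High-CpG promoters had a 500 bp window with a ratio above 0.75 and more than 55% GC, and low-CpG promoters had none above 0.48. Of 5495 genes with a high-CpG promoter, 95.8% had a peak at one of their promoters. The share was 90.7% of 6494 intermediate and 38.2% of 8818 low-CpG genes. Where a peak was present it was widest at high-CpG promoters, with a median of 3497 bp and 600 tags, as against 2775 bp and 444 tags at intermediate and 2287 bp and 305 tags at low-CpG promoters. The fold enrichment was lowest at high-CpG promoters, with 5.67, and was 6.83 at intermediate and 6.79 at low-CpG promoters. Peaks that held the starts of 2 or more protein-coding genes, 1308 in number, were 3588 bp wide at the median with 653 tags, and 10596 peaks with the start of 1 such gene were 2778 bp wide with 437 tags.

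Seen from the DNA, most CpG islands at promoters carried the mark and most others were divided by their repeat content. CpG islands were computed as stretches of at least 500 bp with at least 55% GC and an observed to expected ratio of at least 0.65, which gave 20461 on the autosomes. A peak overlapped 75.7% of them (75.1% to 76.3%). This share holds for this rule only, since under a looser one, of at least 200 bp with lower limits of GC and of the ratio, 26.9% of 171512 islands overlapped a peak, with 65.2% at promoters, 20.8% in gene bodies and 16.5% in intergenic DNA. Under the first rule, 90.8% of 13444 islands at promoters overlapped a peak, in gene bodies 55.3% of 3498 and in intergenic DNA 38.1% of 3519. Repeats are soft-masked in the reference genome, and 68.6% of the intergenic islands were soft-masked over 50% or more of their length. Of the 1104 intergenic islands below that limit 67.9% overlapped a peak (65.1% to 70.6%), and of the 2415 above it 24.5% (22.8% to 26.3%). Under the looser rule these shares were 24.98% and 8.91%. Whether reads could be placed uniquely in these repeats was not tested. In turn, 14735 peaks overlapped an island, or 25.2% (24.8% to 25.5%), and they held 54.6% of the tags in peaks. Under the looser rule, 56.5% of peaks overlapped an island. By midpoint, 64.0% of promoter, 41.3% of exonic, 16.98% of intronic and 7.63% of intergenic peaks overlapped one.

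The CpG density rose at summits of every kind of peak. In the 12092 peaks that overlapped a promoter and an island it was 9.06 CpGs per 100 bp next to the summit and 1.14 at about 3000 bp from it. In 6996 promoter peaks without an island the values were 2.99 and 1.12. Peaks that overlapped no promoter were split by the repeat content of the 201 bp around the summit. With less than 50% soft-masked there, 19884 peaks in genes had 2.39 CpGs per 100 bp at the summit and 1.14 in the flank, and 14077 intergenic peaks had 2.33 and 1.04. The remaining 5522 peaks, with a soft-masked summit, had 2.83 and 0.742. These last 3 groups still contained some peaks with an island, 5.90%, 4.97% and 13.96% of them, and the profiles are means over all peaks of a group.

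**Figure D4:**
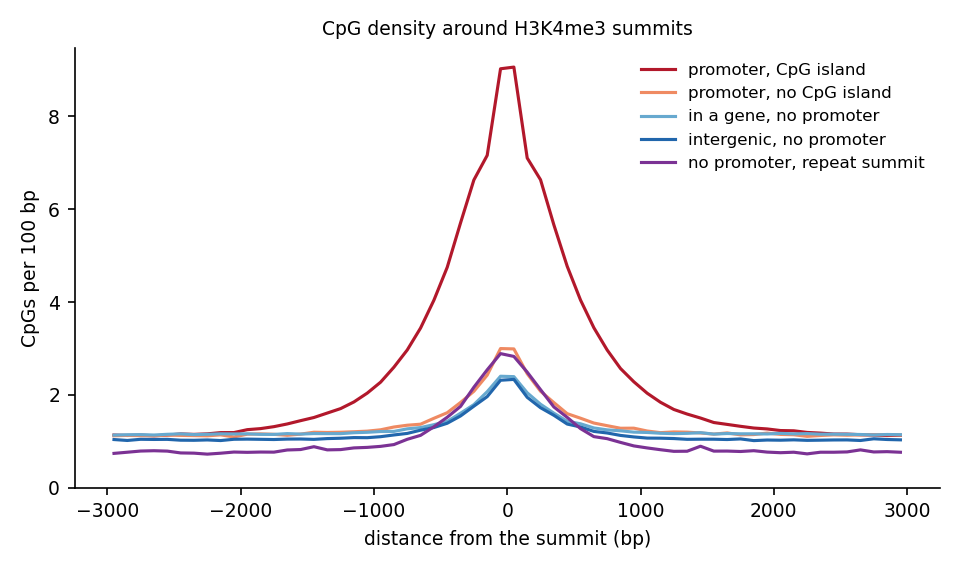
Mean number of CpGs per 100 bp against the distance from the peak summit (bp) for the 5 groups of peaks. All curves have their maximum at the summit, from 9.06 in promoter peaks with a CpG island to 2.33 in intergenic peaks.

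Short binding motifs of transcription factors were counted in the same 201 bp around the summit, on both strands, and compared with windows of the same length 3000 bp to both sides and with all such windows of the autosomes. Base composition differs between these windows and has a part in every share, and a match of letters is not a bound site. The GC box GGGGCGGG, a site of the SP and KLF factors, was present at 24.9% of summits of promoter peaks with an island, at 1.05% of their flanks and in 0.518% of all windows. CCGGAAGT, an ETS factor site, was present at 5.03%, 0.157% and 0.125%, and GCGCATGC, the site of NRF1, at 3.61%, 0.372% and 0.224%. CCAATCA, the CCAAT box of NFY, was present at 7.30%, 2.001% and 2.52%. TATAAA was present at 1.65% of these summits, 14.2% of their flanks and 19.01% of all windows.

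Summits away from promoters held several of the same letters. In intergenic peaks without a repeat summit the GC box was present at 3.97% of summits and 0.774% of flanks, and the ETS site at 0.867% and 0.185%. In the same peaks, AGGGGGCGC, the core of the site of the insulator protein CTCF, was present at 0.952% of summits, 0.0568% of flanks and 0.0402% of all windows, and in promoter peaks with an island at 2.001% of summits and 0.116% of flanks. TCAAGGTCA, the site of ESRRB, a nuclear receptor of the pluripotency network, was present at 0.987%, 0.632% and 0.430%. ATGCAAAT, the octamer bound by POU factors such as OCT4, was present at 2.46%, 1.27% and 1.71%, and GGGTGTGG, a KLF site, at 3.91%, 1.82% and 1.22%. At summits in repeats the most frequent of the 13 motifs was AAGATGGC, a YY1 site, which was present at 12.1% of 5522 summits, 1.41% of flanks and 1.78% of all windows. The compared windows were not matched for repeats. Copies of the same repeat can share these letters, so the summits are not independent. At summits of promoter peaks with an island ESRRB letters were rarer than in their flanks (0.0992% and 0.657%).

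An intergenic example is a peak of 6864 bp, 21821 bp from the nearest start site, that of Ranbp17 (chr11:33532136-33538999), with 1082 tags and a fold enrichment of 2.79. It was chosen among intergenic peaks without a promoter, a CpG island or a repeat summit, and not all autosomes were searched. On the autosomes searched, it had the most tags of such peaks with the ESRRB letters within the 150 bases around the summit. The letters are in capitals in the 150 bases shown here (chr11:33537502-33537651, plus strand of mm10). These bases contain 1 CpG.
Ranbp17 intergenic peak: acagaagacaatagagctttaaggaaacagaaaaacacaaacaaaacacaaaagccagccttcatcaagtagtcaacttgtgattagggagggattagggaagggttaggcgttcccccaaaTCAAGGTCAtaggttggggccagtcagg

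Peaks made mostly of repeats were narrow. In 4646 peaks, or 7.93%, at least 50% of the bases were soft-masked, including 16.8% of intergenic, 6.34% of intronic and 0.843% of promoter peaks. Their median width was 882 bp with 52 tags and a fold enrichment of 7.98, and the other 53925 peaks had 1541 bp, 124 tags and 6.34. Among peaks more than 100000 bp from a start site, 37.9% were of this kind. The highest fold enrichment of an intergenic midpoint was that of a peak soft-masked over 92.6% of its 528 bp, with 75 tags and a fold enrichment of 24.3, 146918 bp from the start of the lincRNA gene Gm11261 (chr4:78513201-78513728). The next intergenic peaks were near Gm25352 (24.2) and Gm8290 (23.2). In promoters, peaks at Zfp738 (chr13:67682772-67683968) and Zfp458 (chr13:67268620-67269422), 2 zinc finger genes of chromosome 13, followed the first rank of Mir6546 (25.5) with 22.4 and 21.4. In introns the highest values were those of peaks at Gm49345 (23.2, also on chromosome 13) and Lipo3 (23.0) and of one (22.4) that was 95585 bp from the nearest start site, that of the pseudogene Gm13197. In exons they were those of a peak 7313 bp from the nearest start site, that of Lars2 (30.2), and of peaks at Gm10576 (22.2) and Gm5067 (22.1). These 12 peaks had between 70 and 180 tags, so that the highest enrichments were not at the peaks with the most tags.

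The peaks with the most tags and the widest peaks had fold enrichments below the median of 6.46. The most tags, 3666, were in a peak of 6068 bp at the lincRNA gene Gm26917 (chr17:39842859-39848926), with a fold enrichment of 2.69. Its score, 1601, was also the highest of all autosomal peaks. It was followed by peaks at Sin3a, a corepressor subunit (chr9:57070589-57078706, 2121 tags, 2.76), and at Gm12735 (chr11:3190887-3198649, 2108 tags, 4.61). No peak was removed for lying in multi-copy sequence, here or among the peaks of highest fold enrichment. Whether their reads could be placed uniquely was not tested. The widest were at the histone gene Hist1h2bf (chr13:23569368-23577976, 8609 bp, 2.42), at Tfap2c, an AP-2 transcription factor (chr2:172543890-172552463, 8574 bp, 2.60), and at Ccnd2, cyclin D2 (chr6:127147617-127156189, 8573 bp, 2.54). The p-value scores of these 3 widest peaks were 54.6, 58.7 and 57.8, just above 50, the score of the cutoff of the list.

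Across all peaks the score rose with width up to 4000 bp and fell beyond it. The score is −log10 of the caller's p-value multiplied by 10. Its median was 86.0 in peaks of 500 to 1000 bp, 553 in 4971 peaks of 3000 to 4000 bp, 340 in 1127 peaks of 5000 to 6000 bp, 123 in 300 peaks of 7000 to 8000 bp and 66.95 in 65 peaks of 8000 bp or more. Over the last 4 of these classes the median number of tags went up from 497 to 816, 1106 and 1237 and the tag density stayed at 146, 150, 151 and 150 tags per kb. Of the 65 widest peaks 95.4% had a score under 100, compared with 4.69% of peaks of 3000 to 4000 bp. No peak was wider than 8609 bp. The header of the list names no control library and a range of 10000 bp for the regional background, which then came from the tags of the H3K4me3 library itself. The part of this setting in the fold enrichments given above and in the scores of wide peaks was not tested. Nor was its part in the promoters without a peak, which follow.

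**Figure D5:**
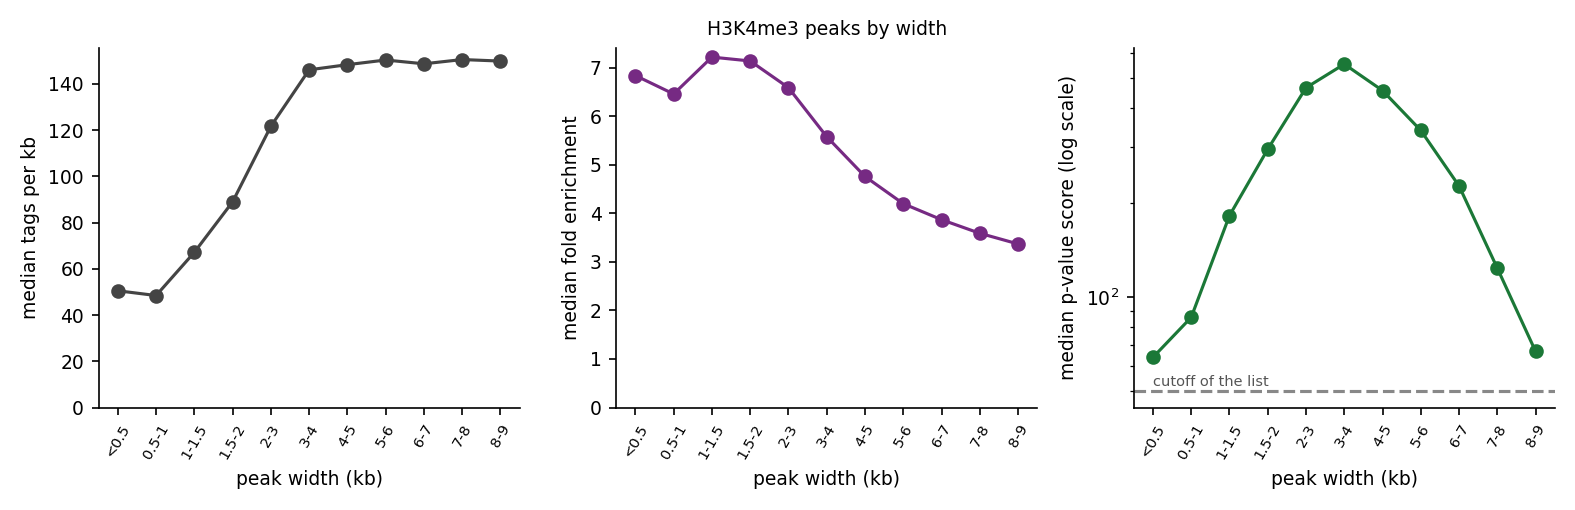
Median tags per kb (left), fold enrichment (middle) and p-value score (right, log scale, dashed line at 50, the cutoff of the list) of autosomal peaks by width in kb. Tag density levels off near 150 per kb above 3 kb while the score falls from 553 to 66.95.

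Of 20 pluripotency genes 12 had a peak at a promoter, or 60% (38.7% to 78.1%), beside 69.8% of all protein-coding genes. Of the 11 in the low-CpG class 6 had one, beside 38.2% of all genes of that class, and of the 9 in the high or intermediate class 6, beside 93.0%. Their peaks were wide, with medians of 5389 bp, 818.5 tags and a fold enrichment of 3.855, beside 2964 bp, 476 tags and 6.34 over all 14520 marked genes. The widest were those of the transcription factors Klf2 (chr8:72317261-72325178, 7918 bp, 1214 tags, score 61.5), Tfcp2l1 (6547 bp, 985 tags), Prdm14 (5922 bp, 992 tags) and Klf4 (chr4:55528899-55534815, 5917 bp, 1239 tags), and that of Dppa2 (6451 bp, 686 tags, at an internal start). The only peaks of Esrrb (chr12:86420676-86424084) and Tbx3 (chr5:119679115-119684295) lay at internal start sites and not at the start of the gene model. No peak was listed at the promoters of Pou5f1, Nanog and Sox2, which encode the core factors OCT4, NANOG and SOX2, nor at those of Sall4, Tdgf1, Utf1, Dppa5a and Fgf4. From the start of the gene, the nearest peak was 7016 bp away for Pou5f1, 10597 bp for Nanog, 25135 bp for Sox2 and 13177 bp for Tdgf1. It was 3354 bp away for Fgf4, 4796 bp for Utf1, 5696 bp for Dppa5a and 11504 bp for Sall4. The list thus has a peak at some markers of the labelled cell type and none at others, and it does not by itself identify the cells.

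Fibroblast genes, fixed as markers of feeder cells, had a peak in 5 of 10 cases (50%, 23.7% to 76.3%), beside 69.8% of all protein-coding genes. Low-CpG genes had one in 3 of 8 cases, beside 38.2% of their class, and high or intermediate-CpG genes in 2 of 2, beside 93.0%. The widest were at Prrx1 (4287 bp, 480 tags) and Twist2 (3371 bp, 467 tags), both developmental transcription factors. The matrix genes Col1a1 (2063 bp, 306 tags, at an internal start) and Col1a2 (1492 bp, 132 tags) and the surface marker Thy1 (2574 bp, 377 tags) also had a peak. Col3a1, Dcn, Fap, Lum and Postn had none, their nearest peaks being 45839 bp or more from the start. A peak shows the mark and not expression.

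Regulators of other lineages were marked in 19 of 20 cases, or 95% (76.4% to 99.1%), beside 69.8% of all protein-coding genes. The count was 16 of 17 in the high or intermediate-CpG class, beside 93.0% of all its genes, and 3 of 3 in the low class, beside 38.2%. The only peaks of Gata4, in the low class, and of Sox17 lay at internal start sites. Their peaks had medians of 3824 bp, 458 tags and a fold enrichment of 4.25. The widest were at the endoderm and mesoderm regulators Eomes (chr9:118475862-118482787, 6926 bp, 939 tags), Gata6 (6705 bp, 845 tags) and Gsc (6229 bp, 694 tags), followed by the neural gene Sox1 (4911 bp, 848 tags) and Pax6 (4340 bp, 492 tags). The proneural gene Neurog2 (3824 bp, 494 tags) and the muscle regulator Myod1 (3491 bp, 340 tags) were marked as well. Hand1, a heart and trophoblast regulator, was without a peak at its promoter and had one 3597 bp from its start.

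Genes of terminally differentiated cells had a peak in 6 of 15 cases, or 40% (19.8% to 64.3%), beside 69.8% of all protein-coding genes, with a median width of 1558 bp and 141 tags. Of the 12 in the low-CpG class 3 had one, beside 38.2% of all genes of that class, and of the 3 in the high or intermediate class 3, beside 93.0%. Peaks were found, among others, at Ckm of muscle (1765 bp, 277 tags), Ucp1 of brown fat (1751 bp, 224 tags), Krt14 of epidermis (1742 bp, 91 tags), Cd3e of T cells (1374 bp, 137 tags) and Gfap of astrocytes (1083 bp, 145 tags). The values for Krt14 and Gfap are those of peaks at internal starts. No promoter of Alb, Amy2a5, Apoa2, Hba-a1, Ins2, Myh6, Sftpc or Umod had one, and all of these were in the low-CpG class. Hba-a1 and Amy2a5 have near-identical copies in the genome, where reads may not be placed.

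Housekeeping genes had a peak in 11 of 15 cases, or 73.3% (48.1% to 89.1%), beside 69.8% of all protein-coding genes. Of the 11 in the high or intermediate-CpG class 8 had one, beside 93.0% of all genes of these classes. Of the 4 in the low class 3 had one, beside 38.2%. The peaks had medians of 5368 bp and 966 tags. Wide peaks were at Polr2a, the largest subunit of RNA polymerase II (6441 bp, 966 tags), Actb (5518 bp, 919 tags) and Ppia (5484 bp, 1073 tags). Eef2, Eif4a1, Gapdh and Hsp90ab1, which encode a translation elongation factor, a translation initiation factor, a glycolytic enzyme and a chaperone, had none. Their nearest peaks were 5011, 12848, 4230 and 10556 bp from the start.

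CpG-rich genes without a peak were few and of several kinds. Of the 11989 genes with a high or intermediate-CpG promoter, 836 had no peak at any promoter, of which 229 were in the high class. The nearest peak to the starts of these 229 was a median of 10307 bp away, with 47.6% having one within 10000 bp. All high-CpG genes lacked a peak in 4.17% of cases. By symbol, the gene models named Gm with a number, among them runs of neighbouring copies, lacked one in 27 of 118 cases, histone genes in 12 of 34 and ribosomal protein genes in 6 of 25. Besides Sox2, Eef2 and Eif4a1 they included Foxd3, Mycn and Ptma, which are known to be active in ES cells, but also Hoxc9 and Ebf3, developmental regulators, and the neuronal genes Grik3 and Unc13a. These were named after their values were seen and are not a tally. The genes of cytosolic ribosomal proteins, also examined after the values were seen, had a peak in 48 of 76 cases, or 63.2% (51.9% to 73.1%), beside 69.8% of all protein-coding genes. Of the 68 in the high or intermediate class 43 had one, beside 93.0% of all genes of these classes. Of the 8 in the low class 5 had one, beside 38.2%. The 48 peaks were wide, with a median of 5904 bp and 883 tags. The absence of a peak from the list is not a measure of absence of the mark, since the tags outside peaks were not analysed here.

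Gene families are set beside the 69.8% of all protein-coding genes with a peak. Of 1128 olfactory receptor genes (Olfr) 17 had a peak, or 1.51% (0.943% to 2.40%), and of 329 vomeronasal receptor genes (Vmn) 2, or 0.608% (0.167% to 2.19%). The zinc finger genes named Zfp had one in 332 of 385 cases, or 86.2% (82.4% to 89.3%), with a median fold enrichment of 7.515. Keratin genes (Krt) had one in 25 of 53 cases, or 47.2%, with a median width of 1251 bp and 97 tags. Histone genes (Hist) had one in 46 of 67 cases, or 68.7%, close to that share, with the widest peaks of these 5 families (4513 bp) and the lowest fold enrichment (3.49). Histone genes stand in clusters, so that 1 peak can serve several genes.

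Of 30422 annotated genes other than protein-coding genes, 18.7% had a peak at a promoter. Bidirectional promoter lncRNAs, which start next to a coding gene, had a peak in 171 of 190 cases (90%, 84.9% to 93.5%). Antisense transcripts had one in 43.3% of 2913 cases and lincRNAs in 26.1% of 5209, with a median width of 2252.5 bp at lincRNA promoters. MicroRNA genes had one in 21.9% of 2054 cases. Processed pseudogenes had one in 8.49% of 8924 cases and unprocessed pseudogenes in 3.801% of 1789, and none was found at 218 immunoglobulin V genes, with a Wilson interval up to 1.73%. These genes can share a peak with a coding neighbour, which was not separated.

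The density of peaks varied between chromosomes. It was lowest on chromosome 14, with 15.7 peaks per Mb and 2.64% of bases in peaks, and highest on chromosome 11, with 36.2 peaks per Mb and 7.59%. Chromosome 11 has 13.8 protein-coding genes per Mb and chromosome 14 has 7.43. Across the 19 autosomes, peaks per Mb and these genes per Mb had a Spearman correlation of 0.854. Chromosome 7, with the most genes per Mb (14.3), had 25.8 peaks per Mb. The median width changed much less, from 1315 bp on chromosome 14 to 1672 bp on chromosome 11.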

How the data were processed

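According to the methods, the authors trimmed the paired reads of the H3K4me3 CUT&RUN libraries, mapped them to mm10 with Bowtie2, merged the duplicates, kept fragments below a size limit and called peaks with MACS. The header of the deposited list gives MACS 1.4.3, whereas the methods name another release and the submitters' processing notes MACS 1.4. It gives a p-value cutoff of 1e-05, no control library, a tag size of 142 bp, and 27328071 of 39669806 tags kept after reduction to 1 tag per position (redundant rate 0.31). That tag size is longer than the size limit in the methods, and which fragments were counted is not settled. The deposited tags are the authors' counts per peak in the merged library, without normalization. The deposited score is −log10 of the authors' p-value multiplied by 10, and the deposited fold enrichment is the authors' ratio of summit pile-up to modelled background. Peak lengths and summit positions are also the authors' values.

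From the list, peaks on the 19 autosomes were placed by midpoint, promoter before exon, intron and intergenic, against GENCODE vM21. CpG content, soft-masked repeats, CpG islands and motifs were computed from the RefSeq copy of GRCm38.p6, whose chromosome lengths match mm10. For the deciles of genes and the promoter classes, the window of the gene model was used, and for a gene with several peaks the values are those of the peak with the most tags. An overlap was at least 1 bp, and shares have 95% Wilson intervals. The depth was that of 1 merged library, so no spread between samples, test or p-value was computed. The named genes are those of 5 lists, of 5 families by symbol, and the 3 peaks with the most tags, the largest width, or the highest fold enrichment in each class. Some items that these rules select are not reported here. The members, lists and rules were chosen with earlier results of these data known, and the ribosomal protein genes and some CpG-rich genes were added after seeing their values. On simulated sequence, 60 of 60 CpG islands and 1000 of 1000 midpoints were recovered. For 8 results, 45 alternatives were computed. The HA lists entered only the count of all peaks. Software was samtools 1.23.1 and Python 3.11.15, with matplotlib 3.10.9, scipy 1.17.1, pandas 2.3.3, numpy 2.4.6 and pysam 0.24.0.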

Additional observations from a re-analysis of the deposited data

Results flagged for a closer look

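Peaks outside the autosomes were not part of the comparisons above. On chromosome X the list held 1349 H3K4me3 peaks, or 8.25 per Mb, below the lowest autosome (15.7 per Mb). Their median width was 1312 bp, with 95 tags and a fold enrichment of 7.36, and 43.6% overlapped a promoter. Of 948 protein-coding genes of chromosome X, 51.9% had a peak at a promoter (48.7% to 55.1%). On chromosome Y the list held 6 peaks. The differences from the autosomes were not tested.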

How the results depend on the processing

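Of 45 alternatives, 16 stayed within the interval of the value (or within 1.5 times a count) and 29 moved beyond it. With peaks at or above the median fold enrichment, the shares became 37.5% for introns and 33.4% for intergenic DNA, the median width 1312 bp, and the counts 7628 genes, 7455 peaks with a CpG island and 7474 islands with a peak. This limit keeps 29537 of 58571 peaks, so that counts fall by construction, and 25.2% of the kept peaks overlapped an island, as in the whole list. With a score of at least 100 the shares of promoters, exons, introns and intergenic DNA were 20.9%, 12.7%, 38.2% and 28.2%, and the median width 1741 bp. Placed by summit, promoters had 23.1%, exons 10.02% and introns 36.2%. With promoters of 2500 bp to both sides, the 4 shares were 37.3%, 4.80%, 29.1% and 28.8%. With transcripts of protein-coding genes they were 13.95%, 10.7%, 37.7% and 37.7%, and with RefSeq transcripts 13.5%, 13.9%, 43.0% and 29.5%. By overlap, 32.6% of peaks were at promoters. With the looser rule for CpG islands, from 200 bp, 33080 peaks (56.5%) overlapped an island and 46096 islands a peak, 26.9% of all such islands. The promoter share therefore depends on the definition of a promoter, from 13.5% to 37.3%. No paired analysis was possible because the duplicates were merged into 1 list. Of all peaks, 6.44% had under 30 tags and 25.3% a score under 100, and the effect of depth was not tested.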
